A study of Mus musculus with 24 samples.

Results

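Accessible chromatin was described in LT-HSCs (long-term haematopoietic stem cells) sorted from mouse bone marrow 3 d.p.i. (days after Cre was induced), in Daxx-KO against Daxx-WT animals. The libraries were chosen by their titles, which name this population and this time, and they make up 5 of the 24 libraries of the series. ATAC-seq, in which the Tn5 transposase cuts open DNA and tags it for sequencing, was used to ask how loss of Daxx alters the chromatin of stem and progenitor cells. The Daxx-KO group had 3 libraries, labelled Daxx F/F Cre +/-, and the Daxx-WT group had 2, labelled Daxx +/+ Cre +/-. All animals were C57BL/6, carried a tamoxifen-activated Cre and received tamoxifen, so exposure to Cre was shared by both groups. The Cre is made from the Rosa26 locus in nearly every cell type, so Daxx was removed from the whole animal and not from stem cells alone. The cells were sorted for c-Kit, Sca-1 and CD150 and against lineage markers, CD48, Flk2 and Il-7Ra. Per the study's methods, the floxed line was made on C57BL/6N and the Cre line is C57BL/6J, and both sexes were used. The labels give no age, and the study's methods state only a usual range of weeks for treatment over all its mice. A legend of the study gives the controls at this time as Daxx +/+ and Daxx +/F, whereas both labels read Daxx +/+, and the groups here follow the labels. The legend calls the samples independent, but the labels do not tie each library to an animal, so p-values measure the spread between these libraries.

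Daxx is a chaperone that deposits the histone variant H3.3 at repeats, telomeres and other silent chromatin, where it works with the remodeller Atrx and with enzymes that set the repressive mark on lysine 9 of histone H3. LT-HSCs sit at the top of blood formation. In such cells GATA, RUNX, ETS and AP-1 factors bind enhancers, and the balance between PU.1 and GATA factors is known to separate granulocyte and monocyte fates from erythroid and megakaryocyte fates.

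The authors deposited a list of sites in which windows of 600 bp had passed p below 0.0001 in a test between these same libraries. The reads at each site were given per library after division by a library constant, and are called scaled reads here. Because the list holds selected sites alone, the differences below describe the list and were not tested independently. The log2 difference is the log2 ratio of the group means after adding 1 scaled read, with positive values where Daxx-KO was higher. Of 11927 sites, 3476 were higher and 8451 were lower in Daxx-KO. Library values did not overlap between the groups at 3436 higher sites (98.8% of those listed as higher) and at 8429 lower sites (99.7%), as a list selected in this way would show. In limma, with Benjamini-Hochberg adjustment over the 413247 windows that had been tested, 0 sites passed (0.0%), and 3084 higher and 8370 lower sites had an unadjusted p below 0.05. The lowest adjusted p was 0.301. On simulated data with 200 changed sites, 0 passed with this adjustment, so the count of 0 cannot tell changed sites from unchanged ones. The unadjusted counts come from sites selected on these same libraries and add no separate evidence.

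The libraries had 4.21 to 9.60 reads per window on average. Daxx-KO library 2 had the fewest, and after scaling its mean per window was 4.01 against 7.41 to 10.8 in the others. Of the sites, 143 were more than 4 times lower in Daxx-KO library 2 than in every other library. The libraries are numbered here in the order of the file, which need not be that of the replicate numbers in the titles. At the promoters of 7 LT-HSC markers, a peak was listed for 6 in Daxx-KO (Kit, Slamf1, Procr, Mecom, Hlf and Meis1) and for 4 in Daxx-WT (Kit, Mecom, Hlf and Meis1), and the promoter of Ly6a, which encodes Sca-1, had none. A promoter peak was listed in each genotype for 1 of 7 neutrophil, 1 of 6 red cell, 2 of 4 T cell and 2 of 4 vessel and stroma markers, and for 3 (Daxx-KO) and 2 (Daxx-WT) of 6 B cell markers. S100a8, S100a9, Ly6g, Hba-a1, Hbb-bs and Ms4a1 had no promoter peak in either list. Fewer cells of a type and less open chromatin per cell cannot be told apart in such bulk libraries.

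At the targeted locus, on chromosome 17 (Daxx itself spans 33909414 to 33915590 in mm10), the floxed part runs from exon 2 to exon 7. The site at 33909701 to 33911600 covers the start of that part, with exons 2 and 3 in the transcript with the most exons. Scaled reads were 69.7, 108.8 and 61.2 with Daxx deleted and 200.6 and 365.7 without deletion. All Daxx-KO libraries were therefore below both Daxx-WT libraries, but reads were present in each of them. Exon 2 starts at 33910431, so the site also covers sequence before the floxed exons. Reads before and within the floxed part are not separated here, so the remaining reads do not measure undeleted Daxx. The log2 difference was -1.81, the lowest of all sites within peaks. A peak over the promoter was listed in both genotypes and ended at 33910009 in Daxx-KO and at 33910308 in Daxx-WT.

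At a group of X-linked sites Daxx-WT library 1 stood apart. At the start of Xist, the RNA that silences an X chromosome, the site at X 103481151 to 103482400 had 249.6, 231.0 and 236.5 scaled reads in the Daxx-KO group against 12.4 and 239.1. Daxx-WT library 1 was the low one. The 4933407K13Rik region, like Firre known to be open on the inactive X, had the same pattern at its site at 75733501 to 75734450, with 225.7, 252.0 and 199.5 against 4.51 and 212.9. In and beside Firre, 13 sites were higher in Daxx-KO, and both Daxx-WT libraries were below every Daxx-KO library at all 13, with Daxx-WT library 1 more than 4 times below the other libraries at 8. The site at 50602551 to 50603550 had 275.3, 265.3 and 235.4 against 14.7 and 226.0, and the site at 50605751 to 50607850 had 186.3, 184.2 and 158.3 against 27.0 and 93.8. Daxx-WT library 2 thus lay close to the Daxx-KO libraries at the former and well below them at the latter. Daxx-WT library 1 was more than 4 times below every other library at 12 sites, all of them on the X chromosome. The labels give no sex. On X, 83 sites were higher and 24 lower (77.6% higher), against 28.7% higher over the autosomes, and without those 12 sites 71 higher X-linked sites were left. Leaving out X and Y gave 3391 higher and 8425 lower sites. Daxx-KO library 1 was not low at these Xist and 4933407K13Rik sites. It stood apart elsewhere on X, at the distal end of Mid1, where the site at 169992701 to 169994900 had 100, 621.4 and 648.2 scaled reads against 1028 and 1188.

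**Figure D1:**
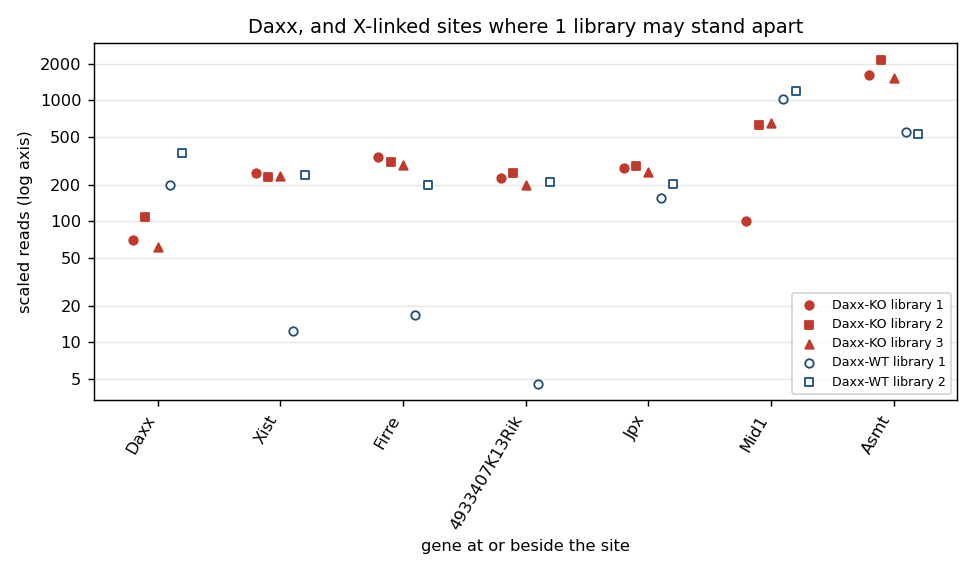
Scaled reads (log axis) in each library at the site over Daxx and at sites at or beside Xist, Firre, 4933407K13Rik, Jpx, Mid1 and Asmt, with filled red symbols for Daxx-KO and open blue symbols for Daxx-WT. At Daxx both Daxx-WT libraries lie above all Daxx-KO libraries, at Xist Daxx-WT library 1 is at 12.4 where the other 4 libraries lie between 231.0 and 249.6, and at Mid1 Daxx-KO library 1 is at 100.

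The 2 directions differed in where their sites lay. Of the sites higher in Daxx-KO, 2286 (65.8%) overlapped a peak of either genotype, whereas 1163 of those lower in Daxx-KO (13.8%) did. The sites higher within peaks had a median of 125.7, 134.6 and 115.1 scaled reads in Daxx-KO against 69.9 and 67.5 in Daxx-WT, with a median log2 difference of 0.80. The sites lower within peaks had 54.1, 55.4 and 54.9 against 89.0 and 92.8, with a median of -0.74. The 7288 sites lower outside peaks were the most frequent and had the fewest reads in Daxx-KO, with medians of 14.7, 11.5 and 16.9 against 36.1 and 31.9 and a median log2 difference of -1.21. The 1190 sites higher outside peaks had 48.6, 44.9 and 48.6 against 23.7 and 20.6, with a median of 1.07. Thus most of the gains lay in regions called as peaks, and most of the losses lay outside peaks, at sites with few reads. At the sites lower outside peaks, median reads were 1.69, 2.86 and 1.67 times the library's mean per window in Daxx-KO. In Daxx-WT they were 3.34 and 4.30 times that mean. Of these sites, 87.5% overlapped no peak in the lists of other populations used below, against 54.6% of those higher outside peaks. Whether the sites lower outside peaks are open chromatin was not tested. When libraries were scaled to their mean per window in place of the authors' constants, no higher site and 14 of the 1163 lower sites within peaks changed direction, while the median log2 difference became 1.25 for higher and -0.31 for lower sites within peaks.

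**Figure D2:**
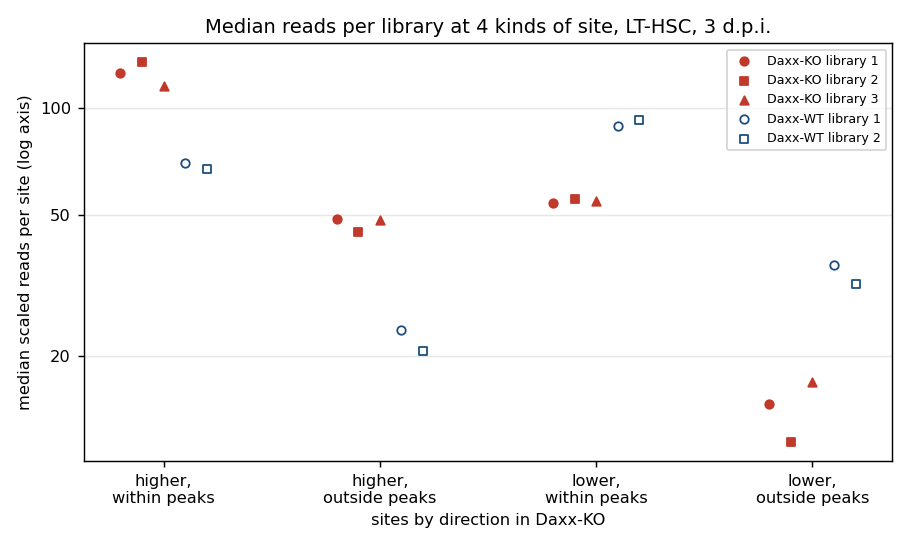
Median scaled reads per site (log axis) in each library for sites higher or lower in Daxx-KO, within or outside peaks. In each kind of site the 3 Daxx-KO libraries lie on 1 side of both Daxx-WT libraries, as the selection of sites fixes, and sites lower outside peaks have the fewest reads in Daxx-KO.

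Most sites within peaks lay away from transcription starts. A start of transcription was within 1000 bp of 581 of the 2286 sites higher within peaks (25.4%) and of 335 of the 1163 sites lower within peaks (28.8%). The share in introns was 40.0% and 40.7%, and between genes it was 31.8% and 25.9%. Of the higher sites within peaks, 1159 overlapped a peak of the Daxx-KO list alone, 1116 a peak in both lists and 11 a peak of the Daxx-WT list alone. Of the lower sites, 343 overlapped a Daxx-WT peak alone, 716 both and 104 a Daxx-KO peak alone. The Daxx-KO list held 44326 peaks and the Daxx-WT list 36949. In these lists, 10701 Daxx-KO peaks had no Daxx-WT peak, and 3206 Daxx-WT peaks had no Daxx-KO peak. The lists came from groups of 3 and 2 libraries and differ in length, so these counts are descriptions.

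The sequence of the sites differed by direction. A GATA motif (AGATAAG, either strand) lay within 200 bp around the centre of 221 of the 2286 sites higher within peaks (9.67%), of 1.38% of those lower within peaks, of 3.26% of all Daxx-KO peaks and of 2.93% of windows taken every 100 kb of the genome. Sites higher outside peaks held it at 7.40% and those lower outside peaks at 2.13%. The RUNX motif (TGTGGTT) was likewise found at 10.4% of sites higher and 5.42% of those lower within peaks, with 6.60% of all Daxx-KO peaks. The AP-1 motif (TGANTCA) went the other way, with 5.77% of sites higher and 11.0% of those lower within peaks against 6.26% of all Daxx-KO peaks. The PU.1 motif (GAGGAAGT) was found at 4.2% of sites higher and 2.32% of those lower within peaks, against 3.98% of all Daxx-KO peaks, so that the higher sites were near the level of all peaks. Shares for C/EBP (TTGCNNAA), at 7.96% and 7.65%, and for IRF (GAAANTGA), at 3.98% and 4.64%, were close between the directions. A match is a run of letters and not evidence of a bound factor.

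**Figure D3:**
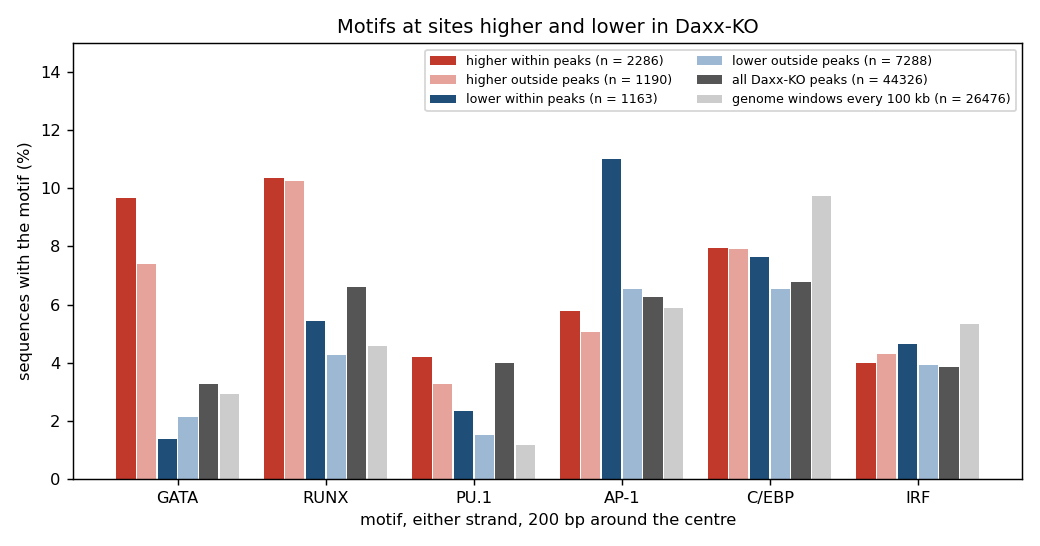
Share of sequences (%) that hold each motif on either strand within 200 bp around the centre, for the 4 kinds of site, all Daxx-KO peaks and genome windows every 100 kb. GATA was found at 9.67% of sites higher within peaks and 1.38% of those lower within peaks, and AP-1 at 5.77% and 11.0%.

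The difference was also seen away from promoters. Away from transcription starts, GATA was found at 10.8% of sites higher and 1.57% of sites lower within peaks, and at 4.39% of all Daxx-KO peaks of that kind. AP-1 was found there at 6.33%, 11.6% and 8.05%. The median GC content was 49.5% at sites within peaks in both directions. The 221 higher sites with a GATA motif had medians of 140.4, 139.3 and 119.3 scaled reads in Daxx-KO against 72.1 and 66.6 in Daxx-WT. Of these, 60.2% overlapped a peak of the Daxx-KO list alone, against 49.7% of the higher sites without the motif.

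Sequences of 200 bases around the centre of sites higher within peaks near blood genes are shown to let the GATA motif be seen in place, together with any other searched motif in the same window. They were read from GRCm38 on the forward strand, and capitals mark motif letters, which appear as CTTATCT where GATA lies on the reverse strand.
Gata1 intron, chrX:7971401-7971600: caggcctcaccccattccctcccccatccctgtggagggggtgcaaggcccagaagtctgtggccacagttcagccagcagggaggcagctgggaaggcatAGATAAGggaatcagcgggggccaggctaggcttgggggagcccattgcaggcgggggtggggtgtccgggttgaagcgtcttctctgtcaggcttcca
Itga2b, upstream side, chr11:102479376-102479575: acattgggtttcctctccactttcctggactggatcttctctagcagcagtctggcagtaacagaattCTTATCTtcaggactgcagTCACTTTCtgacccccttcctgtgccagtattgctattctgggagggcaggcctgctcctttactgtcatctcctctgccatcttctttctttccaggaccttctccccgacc
Fli1 promoter region, chr9:32541526-32541725: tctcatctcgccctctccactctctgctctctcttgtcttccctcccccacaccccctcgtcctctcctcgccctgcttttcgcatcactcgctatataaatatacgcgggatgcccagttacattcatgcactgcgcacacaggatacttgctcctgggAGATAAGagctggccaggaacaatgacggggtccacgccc
Ebf1 intron, chr11:44897276-44897475: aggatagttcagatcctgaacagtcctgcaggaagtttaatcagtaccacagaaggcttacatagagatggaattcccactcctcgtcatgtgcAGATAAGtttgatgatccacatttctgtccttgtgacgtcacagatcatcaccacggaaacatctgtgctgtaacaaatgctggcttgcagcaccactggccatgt
Beside Csf2ra, chr19:61207676-61207875: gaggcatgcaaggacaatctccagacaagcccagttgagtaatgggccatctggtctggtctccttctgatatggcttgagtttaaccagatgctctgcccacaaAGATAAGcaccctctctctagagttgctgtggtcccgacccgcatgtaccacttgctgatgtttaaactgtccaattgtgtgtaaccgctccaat
The Itga2b window also holds a reverse IRF motif.

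In the list of erythroid and megakaryocyte genes, 7 of 22 had a higher site within peaks in the gene body or 20 kb to each side (31.8%), and 2 had a lower one (9.09%). Over all 21911 protein-coding genes the shares were 11.8% and 5.94%. The site in the intron of Gata1, the factor that drives red cell and platelet formation, had 106.5, 108.8 and 72.8 scaled reads in Daxx-KO against 59.7 and 46.9 in Daxx-WT. The site beside Itga2b, which encodes the platelet integrin CD41, had 96.4, 97.4 and 108.7 against 54.1 and 36.6, a log2 difference of 1.14. It lies over an exon of the neighbouring gene Gpatch8. The groups did not overlap at either site, as at 98.8% of all sites listed as higher. Zfpm1, which encodes the GATA cofactor FOG1, had 3 higher sites within peaks in its reach. The strongest difference among them was at 122340951 to 122343050 on chromosome 8, with 307.4, 350.3 and 358.9 against 179.2 and 156.6 scaled reads. This site lies beyond the end of Zfpm1, over an intron of the read-through model Gm20388. At the promoter of Epor, the erythropoietin receptor, values were 429.5, 589.9 and 390.6 against 326.8 and 343.2. Epor thus showed a small difference, with a log2 difference of 0.49.

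Vwf, which encodes von Willebrand factor and marks stem cells biased towards platelets, had sites in both directions. The intronic site at 125583201 to 125584400 on chromosome 6 had 179.9, 142.2 and 154.1 scaled reads in Daxx-KO against 90.2 and 67.5 in Daxx-WT. The intronic site at 125595151 to 125596200, less than 12 kb away, had 50.5, 55.4 and 63.3 against 93.5 and 101.3. A single gene therefore held gains and losses at neighbouring elements. The promoters of Hba-a1, Hbb-bs, Hbb-bt and Alas2, genes of haemoglobin and of haem synthesis, had no peak in either list.

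Stem cell factors were also divided. Of 26 genes, 8 had a higher site within peaks (30.8%: Angpt1, Erg, Etv6, Fli1, Gfi1b, Hoxb4, Meis1 and Runx1) and 6 a lower one (23.1%, among them Etv6, Hlf, Lyl1, Mecom and Runx1). Near Hlf, a factor that marks LT-HSCs, the site at 90334401 to 90336000 on chromosome 11 had 107.4, 110.7 and 130.9 scaled reads in Daxx-KO against 200.6 and 215.7 in Daxx-WT. It was a peak in Daxx-WT alone. In Mecom, which encodes the stem cell regulator EVI1, the intronic site at 30455601 to 30456650 on chromosome 3 had 99.1, 93.5 and 82.3 against 160.0 and 134.1, and 7 further lower sites lay outside peaks. In Kit, the receptor of stem cell factor, an intronic site had 98.2, 75.4 and 88.7 against 146.5 and 136.0. These 3 genes had no higher site within peaks.

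Among the genes with gains, the promoter site of Fli1, an ETS factor, had 412.9, 389.4 and 337.8 scaled reads in Daxx-KO against 251.3 and 272.0 in Daxx-WT, a log2 difference of 0.54. The intronic site of Erg, another ETS factor, had 117.5, 90.7 and 88.7 against 50.7 and 63.8. The intronic site of Meis1, a partner of Hox proteins, had 122.0, 137.4 and 144.6 against 91.3 and 76.9. Runx1, a factor without which blood stem cells do not form, had higher sites at 92715201 to 92716200 (154.2, 170.8 and 136.2 against 89.0 and 97.5) and at 92746751 to 92747500, and a lower site at 92653651 to 92654300 on chromosome 16 (62.4, 72.5 and 56.0 against 101.4 and 104.1). The groups did not overlap at any of these sites, as at 98.8% of all higher and 99.7% of all lower sites of this selected list.

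The interferon-stimulated genes had higher sites and no lower site within peaks. Of 29 measured, 12 had a higher site within peaks (41.4%), with 15 sites on 9 chromosomes, 12 of them within 1000 bp of a transcription start. At these sites the median was 116.5, 132.7 and 106.6 scaled reads in Daxx-KO against 77.8 and 68.5 in Daxx-WT, and the log2 differences ran from 0.45 to 1.18. Housekeeping genes had a like share, with 6 of 15 genes (40.0%) and a median log2 difference of 0.45 over 6 sites, against 0.84 at the sites of the interferon list. Oas2, which encodes an antiviral enzyme activated by double-stranded RNA, had 195.5, 244.3 and 214.3 scaled reads at its promoter in Daxx-KO against 120.6 and 107.8 in Daxx-WT. The promoter of Oasl2, a relative of Oas2, had 120.2, 175.6 and 132.0 against 77.8 and 79.7. At the promoter of Irf7, the factor that amplifies the interferon response, values were 301.0, 384.6 and 241.7 against 235.5 and 217.6, so the gap between the groups was small.

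Several of these sites are assigned by distance. The site counted for Usp18 lies over Tuba8, and a pair of the 3 counted for Mx1 lie over Fam3b. With gene bodies alone, 4 of the 29 genes kept a higher site within peaks (13.8%), against 5.39% of all protein-coding genes, and with 50 kb to each side 18 did (62.1%), against 19.3%. In 20 measured genes of nucleic acid sensing, 1 had a higher site within peaks (Tbk1) and 1 a lower 1 (Tmem173, which encodes STING). In Tbk1, the kinase downstream of STING, a site at 121568701 to 121569950 on chromosome 10 had 104.6, 164.2 and 89.7 against 51.8 and 39.4. It lies inside the gene, near an internal start of transcription. Genes of the major histocompatibility complex, whose symbols start with H2-, had higher sites within peaks at 13 of 34 (38.2%) and lower ones at 0, but these genes share 10 sites on 1 chromosome.

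**Figure D4:**
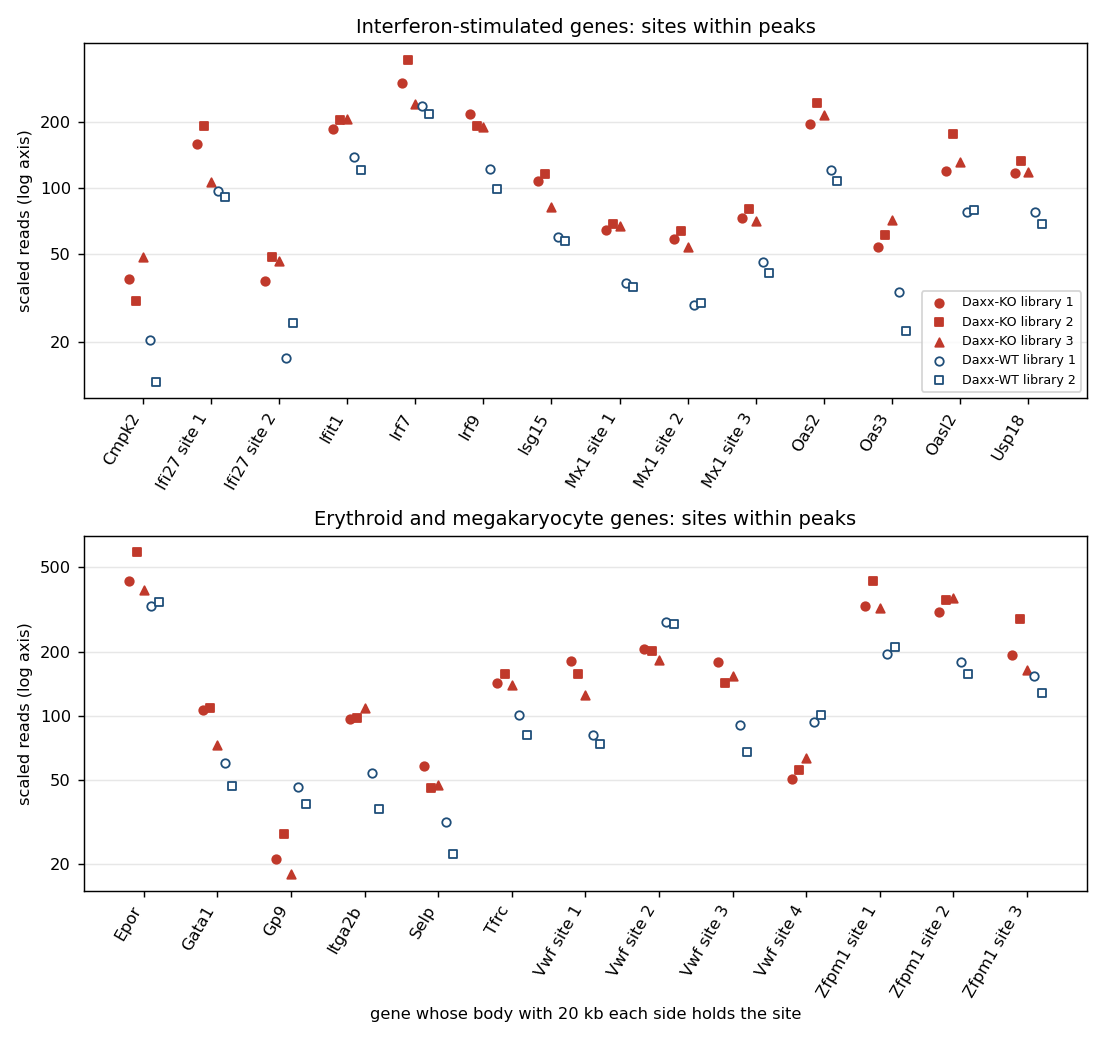
Scaled reads (log axis) in each library at sites within peaks assigned to interferon-stimulated genes (upper panel, 1 site not shown) and to erythroid and megakaryocyte genes (lower panel), with filled red symbols for Daxx-KO and open blue symbols for Daxx-WT. All sites shown in the upper panel are higher in Daxx-KO, with the narrowest gap at Irf7, whereas Gp9 and 2 of the 4 Vwf sites of the lower panel are lower.

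The genes of granulocytes and monocytes were near the level of all genes. Of 30, 3 had a higher site within peaks (10%: Csf2ra, Ltf and Mpo) and 2 a lower one (6.67%: Cebpa and Il6ra). The site beside Csf2ra, which encodes a receptor chain for GM-CSF, at 61207051 to 61208500 on chromosome 19 had 126.6, 134.6 and 87.6 scaled reads in Daxx-KO against 28.2 and 33.8 in Daxx-WT, a log2 difference of 1.88. Near Mpo, the myeloperoxidase of granules, a site over an intron of Lpo had 120.2, 108.8 and 108.7 against 57.5 and 39.4. Beside Cebpa, a factor needed for granulocytes, a site had 16.5, 13.4 and 20.1 against 51.8 and 23.4. Spi1, which encodes PU.1, had no site within peaks and 2 lower sites outside them, with 12.9, 8.59 and 12.7 against 30.4 and 24.4 at its intronic site. The core granule genes Elane, Prtn3 and Ctsg and the gene of the G-CSF receptor, Csf3r, had no site within peaks.

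AP-1 and inflammatory genes had higher sites within peaks at 6 of 26 (23.1%) and lower ones at 4 (15.4%). Fosb, a subunit of AP-1, had 5 higher sites within peaks, as did Gfod1, Hist1h1d and Hist1h2ad, and 24 were counted for Gm20388, a model of 4435 kb that runs across many genes. At its promoter the site at 19306801 to 19309350 on chromosome 7 had 1289, 819.9 and 848.7 scaled reads in Daxx-KO against 581.4 and 528.9 in Daxx-WT. A site inside Il1b, the gene of an inflammatory cytokine, lay near an internal start of transcription. It had 162.4, 158.4 and 128.8 against 68.7 and 56.3, a log2 difference of 1.25. Socs3, a brake on cytokine signals, was lower at an exonic site, with 130.3, 167.0 and 135.1 against 231.0 and 264.5. The site counted for Jund, another AP-1 subunit, lies over Iqcn and had 309.2, 335.0 and 410.6 against 695.2 and 780.2. Genes of AP-1 subunits therefore had sites in both directions.

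Cell cycle genes had higher sites within peaks at 7 of 28 (25%: Btg2, Cdk6, E2f1, Egr1, Mcm2, Mki67 and Rb1) and lower ones at 0. Outside peaks, 6 had a higher site (21.4%) and 10 a lower one (35.7%, among them the cyclin genes Ccnd1 and Ccnd2 and the inhibitor genes Cdkn1b and Cdkn1c), against 6.29% and 28.2% of all protein-coding genes. Cdk6, a kinase that brings stem cells out of rest, had 3 higher sites within peaks and 7 outside them. The intronic site at 3496851 to 3498300 on chromosome 5 had 289.1, 260.6 and 246.0 scaled reads in Daxx-KO against 151.0 and 126.6 in Daxx-WT. The promoter of Mki67, a marker of dividing cells, had 194.5, 210.9 and 180.5 against 127.3 and 126.6. Egr1, which the study calls a gene of quiescence, was also higher, with a log2 difference of 0.61 at a site beside it. The gains within peaks were thus not confined to genes of cell division. Lymphoid genes had higher sites within peaks at 5 of 29 (17.2%) and lower ones at 2 (6.90%). Outside peaks, 13 had a lower site (44.8%, among them Pax5, Bcl11b, Tcf7 and Gata3) and 1 a higher one (Ikzf1). Bach2, a repressor in lymphoid cells, was listed in both directions, with 3 lower sites in its introns and 1 higher site beyond its end. Vessel and stroma genes had higher sites within peaks at 3 of 14 genes (21.4%), with 3 sites in or at Kdr, a receptor of blood vessel growth factor.

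**Figure D5:**
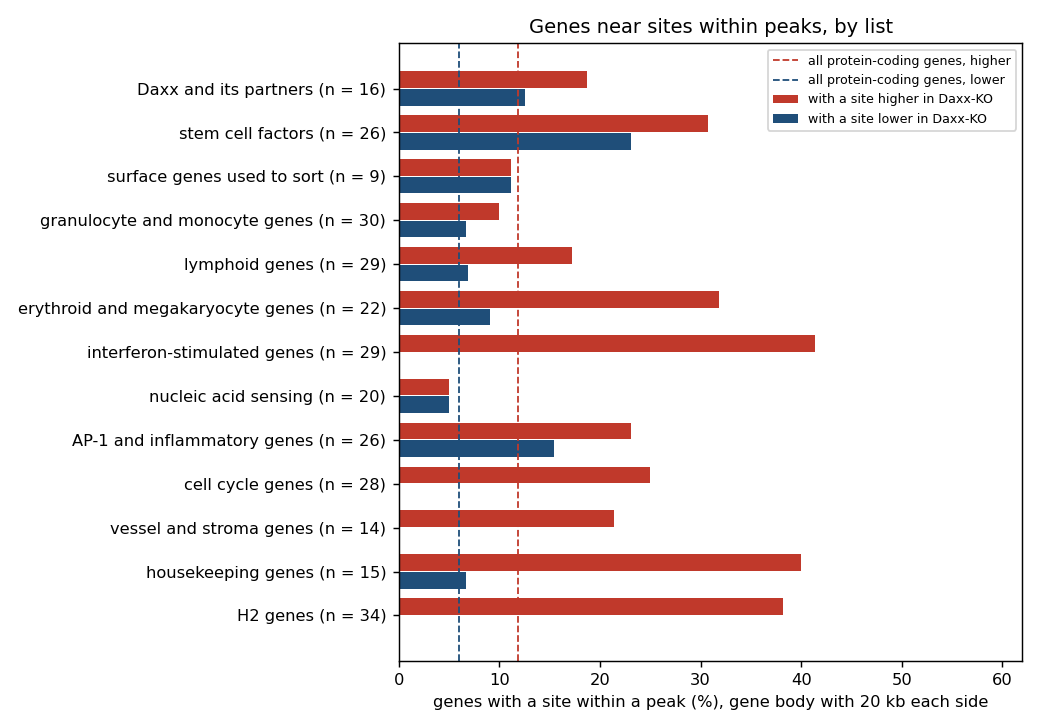
Share of genes (%) in each list with a site within peaks that was higher (red) or lower (blue) in Daxx-KO, with the shares over all protein-coding genes as dashed lines at 11.8% and 5.94%. Interferon-stimulated genes (41.4%) and housekeeping genes (40.0%) have the highest shares with a higher site, and granulocyte and monocyte genes (10%) lie near the dashed line.

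Of 16 genes of Daxx and the proteins it works with, 3 had a higher site within peaks (18.8%: H3f3a, H3f3b and Cbx5) and 2 a lower one (12.5%: Daxx and Pml), against 11.8% and 5.94% of all genes. The promoter of H3f3a, which encodes H3.3, had 429.5, 452.4 and 349.4 scaled reads in Daxx-KO against 305.4 and 307.6 in Daxx-WT, and beside H3f3b, the other H3.3 gene, a site had 918.6, 496.3 and 706.2 against 474.4 and 423.9. The site counted for Pml, the scaffold of the nuclear bodies that hold Daxx, lies over Islr and Islr2 and had 107.4, 134.6 and 110.8 against 161.1 and 211.9. Genes of the replication-dependent histones, whose symbols start with Hist, had a higher site within peaks in 65 of 67 cases (97.0%), and 4 had a lower one. They lie in dense clusters and shared 21 such sites, 18 of them on chromosome 13, with a median log2 difference of 0.49.

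In a short list of genes at telomeric-repeat sites, Wls had no site and Erdr1 was not among the genes measured. Mid1, at the edge of the pseudoautosomal region of X, had 6 lower sites within peaks. The site at 169977901 to 169984100 had 593.7, 427.6 and 450.8 scaled reads in Daxx-KO against 969.1 and 899.3 in Daxx-WT, a log2 difference of -0.93. It lies inside the gene, which starts at 169685199 on the forward strand, over an internal start of transcription. Beyond it, towards the end of X, the site over Asmt at 170672251 to 170678400 had 1632, 2172 and 1518 against 552.1 and 525.2. The difference therefore ran in opposite directions along this end of the chromosome. This region recombines between X and Y and is rich in repeats, and reads there may belong to more than 1 copy.

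The sites with the strongest differences lay at other genes. Within peaks the highest log2 difference, 2.27, was at an annotated start of transcription of Cdk5rap1, which encodes an enzyme that modifies mitochondrial transfer RNA. This site had 467.1, 209.0 and 277.6 scaled reads in Daxx-KO against 71.0 and 59.1 in Daxx-WT. An intron of Phex, an endopeptidase gene on X, followed with 99.1, 84.0 and 87.6 against 14.7 and 24.4. A site between genes, 30.6 kb from Dab2ip, a regulator of Ras, had 168.8, 172.8 and 132.0 against 39.4 and 30.0. The other 7 of the 10 sites chosen for the largest gains, by a rule that required no overlap and a mean of at least 20 scaled reads, lay in introns of Lgmn, Cdc42bpb and Efl1 and within 20 kb of Sucla2, Olfr1324, Csf2ra and Ccr2, with log2 differences from 1.87 to 1.93. All 10 were peaks in Daxx-KO alone, which a choice by the largest gain within peaks called from these same libraries favours. Of the 10 sites with the largest losses, after Daxx came a site at the promoter of Clasrp (18.4, 1.91 and 13.7 against 55.2 and 24.4) and a site between genes whose nearest gene, Ajap1, is 328.2 kb away (13.8, 8.59 and 14.8 against 49.6 and 32.8). The others lay in introns of Ica1, Pygl, C2cd5 and Mid1 and between genes, 173.9 kb from Gpat3 and 52.4 kb from Nt5e. In C2cd5 the intronic site had 70.7, 98.3 and 44.3 against 188.2 and 174.4.

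Outside peaks the largest gains were in an intron of Lingo2 (log2 difference of 2.58) and at sites 298.0 kb from Hpcal1 and 8.78 kb from Rpsa, and the largest losses were at sites 31.9 kb from Chst2 (-2.79) and 427.2 kb from Stxbp6 and in an intron of Afap1l2. At the first of these losses the values were 4.59, 0 and 5.28 scaled reads against 33.8 and 23.4. The counts there were few, which limits the precision of the ratio. Lower sites outside peaks were also counted for 12 of 26 stem cell factors (46.2%), 11 of 26 AP-1 and inflammatory genes (42.3%), 8 of 20 nucleic acid sensing genes (40.0%), 9 of 30 granulocyte and monocyte genes (30.0%), 6 of 29 interferon-stimulated genes (20.7%) and 3 of 22 erythroid and megakaryocyte genes (13.6%), and higher ones for 3, 4, 2, 2, 4 and 2 genes of these lists. Over all protein-coding genes, 28.2% had a lower site outside peaks and 6.29% a higher one. Gm20388 had the most losses outside peaks, with 22. The next included 14 in Grid1, a glutamate receptor gene of 763.3 kb, and 13 in Cdh4, a cadherin gene of 456.9 kb, and neither had a higher site. Within peaks, Foxp1, a forkhead factor gene of 597.4 kb, had 4 lower sites, with log2 differences from -1.01 to -0.67. C2cd5 and Bach2 had 3 each. The genes Srgn, Vps26a and Zfhx3 had 4 higher sites outside peaks each, those of Srgn and Vps26a being shared, and C130026I21Rik and Gm20696 had 14 and 12 lower ones.

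The balance of gains and losses also varied between autosomes. On chromosome 8, 43.5% of sites were higher in Daxx-KO, and on chromosome 14 it was 15.4%. In the KLS table (c-Kit+ Lin- Sca-1+ cells at 3 weeks post induction), which has other libraries, the shares ran from 14.3% on chromosome 3 to 28.8% on chromosome 17. What moves with these shares was not tested.

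The sites were then set against peak lists of other populations, made from other libraries: LT-HSCs without a time label, CMPs (common myeloid progenitors) and GMPs (granulocyte and monocyte progenitors), which the study's methods place at 3 weeks after induction. Of the sites higher within peaks, 76.6% overlapped a peak of Daxx-WT LT-HSCs, 82.9% a peak of Daxx-WT CMPs and 57.3% a peak of Daxx-WT GMPs. Of the sites lower within peaks, the shares were 92.3%, 55.5% and 48.2%. Over all peaks of this time the shares were 94.5%, 85.5% and 75.9%. Of the higher sites, 342 (14.96%) were peaks in Daxx-WT CMPs or GMPs but not in Daxx-WT LT-HSCs, against 30 of the lower sites (2.58%) and 3.18% of all peaks. The higher sites with a GATA motif overlapped a GMP peak at 32.6% and a CMP peak at 79.6%, against 59.95% and 83.3% of those without it. The lists differ in length and hold no spread between libraries, so these shares are descriptions.

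In the Daxx-KO table of KLS cells, which shares no library with the LT-HSCs, 251 of the 2286 sites higher within peaks (11.0%) met a listed site, which was also higher at 179 (71.3%) and lower at 72, while 19.1% of all 17311 KLS sites were higher. Of the 1163 sites lower within peaks, 86 (7.40%) met a site, also lower at 66 (76.7%). Over all KLS sites 80.9% were lower, so that this share within peaks does not exceed that of the table. Of the 7288 sites lower outside peaks, 286 (3.92%) met a site, also lower at 252 (88.1%). Of the 1190 sites higher outside peaks, 76 (6.39%) met a site, also higher at 50 (65.8%). Population and time differ between these cells and the LT-HSCs, as do Cre line and inducer per the study's methods for RNA. Among the 141 sites that were named by size or belong to listed genes within peaks, 11 met a site of that table. The KLS site at Cdk5rap1 had 197.1, 139.1 and 99.7 scaled reads with Daxx deleted against 7.3 and 30.9 without deletion. The sites at Daxx, at Fosb, nearest to Dab2ip, over Manba (counted for Nfkb1) and near Olfr1324 also kept their direction.

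A pair of sites shows the other motifs in place. The higher site counted for Usp18, over Tuba8, holds a RUNX motif on the reverse strand and an IRF motif, and the lower site in Runx1 holds AP-1. Both are 200 bases around the centre on the forward strand of GRCm38, with motif letters in capitals.
Usp18 and Tuba8, chr6:121226126-121226325: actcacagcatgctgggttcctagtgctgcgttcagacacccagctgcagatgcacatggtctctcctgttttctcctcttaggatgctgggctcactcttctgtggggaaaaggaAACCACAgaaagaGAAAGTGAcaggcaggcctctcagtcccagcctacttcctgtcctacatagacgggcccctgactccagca
Runx1 intron, chr16:92653876-92654075: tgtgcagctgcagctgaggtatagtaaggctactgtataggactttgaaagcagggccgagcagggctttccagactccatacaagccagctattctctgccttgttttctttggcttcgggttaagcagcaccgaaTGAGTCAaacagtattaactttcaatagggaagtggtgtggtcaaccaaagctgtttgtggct
The former had 117.5, 132.7 and 118.2 scaled reads in Daxx-KO against 77.8 and 68.5 in Daxx-WT, and the latter is the Runx1 site whose values are given above.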

How the data were processed

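ATAC-seq of sorted LT-HSCs at 3 d.p.i. was used, with 3 Daxx-KO and 2 Daxx-WT libraries grouped by their titles. The members and gene lists were chosen with earlier results of these data known. Per the submitters' processing notes, CASAVA 1.8.4, cutadapt 1.13, STAR 2.5.3, bedtools and mm10 were used, and read filters are not given in the sources used here.

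The authors made the table of sites with diffReps 1.55.6. Windows of 600 bp were moved by 50 bp, and the deposited signal of a library is its reads divided by a constant (0.89 to 1.09, per the file headers). The table also holds the authors' own log2 fold changes and p-values, which were not used. The deposited group means served only as a check of the values per library. The authors deposited 1 peak list per group with a fold enrichment for each peak, used here only to rank peaks; the study describes its settings in a supplementary text, which was not used here. Repeated intervals were counted once. The table of KLS cells and 6 lists of other populations, which hold positions (no fold), were used for overlaps.

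Peaks and sites were matched by an overlap of at least 1 bp, genes of GENCODE M 21 were taken with 20 kb to each side, and the position of a site followed its centre. Sites were refitted with limma 3.58.1 (R 4.3.3) on log2(value + 1), with an adjusted p below 0.05 as threshold. On simulated data for these libraries (11927 sites, 200 changed by 1.5 on the log2 scale), the median size was estimated as 1.49, and 0 of 200 passed with adjustment over all windows and 160 with adjustment over the listed sites alone, with 5 unchanged sites called. Single sites were named by size of the log2 difference (10 in each direction within peaks and 3 outside, without overlap of library values and with at least 20 scaled reads in the higher group), as were the 5 genes with the most sites of each kind, listed genes with a site within a peak, and Daxx. The Spi1, Asmt, Xist, Firre and 4933407K13Rik values were chosen after they were seen. Python 3.11.15, pandas 2.3.3, numpy 2.4.6, matplotlib 3.10.9 and samtools 1.23.1 were used. Reads without molecular identifiers are not independent molecules. Values of some listed genes are not reported here.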

Additional observations from a re-analysis of the deposited data

Results flagged for a closer look

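Among the sites named in the report, 4 differed in direction between LT-HSCs at 3 d.p.i. and KLS cells at 3 w.p.i., with every Daxx-KO library above both Daxx-WT libraries in the former and below both in the latter. The difference between the populations was not tested, and population and time differ together. Per the study's methods for RNA, KLS cells at 3 w.p.i. came from Mx1Cre mice, which received polyinosinic:polycytidylic acid. The Cre line and the inducer would then differ as well. The log2 difference in KLS cells was -1.03 at the intronic site of Erg, where it was 0.78 in LT-HSCs. At the site counted for Mx1 over Fam3b it was -1.38 against 0.96 in LT-HSCs, at the promoter of Hoxb4 it was -0.775 against 0.71, and beside Egr1 it was -1.47 against 0.61. The KLS site beside Egr1 covers part of the LT-HSC site, with 21.2, 7.0 and 10.3 scaled reads in Daxx-KO against 39.2 and 35.5 in Daxx-WT.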

How the results depend on the processing

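The directions were stable under the alternatives run, as the selection of the list favours: leaving out each library in turn gave 3474 to 3477 higher and 8450 to 8453 lower sites. The limma count of 0 became 11428 with adjustment over the listed sites alone and 15 with libraries scaled to their mean per window, and stayed at 0 without any 1 library. The share of higher and lower sites within peaks (65.8% and 13.8%) was 61.9% and 10.3% with an overlap of at least 0.5 of the shorter interval, 33.4% and 5.80% with the upper 0.5 of each list by fold enrichment, and for higher sites 57.4% with lists of the same length. With lists of the same length, 6262 Daxx-KO and 6022 Daxx-WT peaks were in 1 list only, numbers that equal lengths bring together by construction. Over all lists together, gene bodies alone held a higher site within peaks for 34 genes and a lower one for 12, and 50 kb to each side gave 35 genes with a lower one. In percentage points (higher minus lower within peaks), searching the whole site gave 3.86 for PU.1, -9.70 for AP-1, 13.6 for RUNX and 16.8 for GATA, and searching 100 bp gave -2.44 for AP-1. With libraries scaled to their mean per window, the median of the 10 named gains was 2.38 and the difference at Daxx was -1.30. The causes of these changes were not tested. The alternatives with X and Y left out, with motifs away from promoters and with mean-per-window scaling for lists and motifs were chosen after seeing the data.

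The planned edgeR alternative was not run, because the deposited cells hold several libraries at once. No paired analysis was possible because the table does not show which value belongs to which replicate number. Each group had 3 or 2 libraries of low depth, total read numbers are not known, and 1 library in each group stood apart on X, at different sites.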
